A study of Homo sapiens with 11 samples.

Results

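The late response to hypoxia was read gene by gene in RNA-seq libraries of RWPE1 cells, an immortalized, non-tumorigenic line of human prostate epithelium. It compares 2 libraries of cells kept for 24 h at 1% oxygen with 3 libraries of untreated cells in normoxia (0 h), so 5 of the 11 libraries of the series, chosen by their labels. Each time was planned with 3 replicates, and the third library of the 24 h group was not analysed here. By the labels the medium of the hypoxic cells was also given 10 mM HEPES, a pH buffer, so the effects of low oxygen and of the buffer cannot be told apart. All cells are of 1 line, and nothing in the labels says that replicates came from separate cultures, so p-values measure only the spread between these samples, which may be technical. The 6 libraries from 6 and 12 h of hypoxia took part in the same fit and in 1 later comparison.

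Cells sense oxygen through prolyl hydroxylases (the EGLN enzymes), which in normal oxygen mark the HIF alpha subunits for destruction by the VHL ubiquitin ligase. In low oxygen the alpha subunits persist, pair with ARNT and bind short promoter and enhancer motifs of genes for glucose uptake, glycolysis, pH control, vessel growth and their own hydroxylases. Longer hypoxia is known to reduce mitochondrial respiration, cell division and DNA repair in epithelial cells.

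The 24 h libraries held 27496009 counts (replicate 1) and 34067399 counts (replicate 2), against 28362918 to 32922049 counts in normoxia, and they differed from each other far more than other replicates did. Of the 19981 genes tested, 5737 (28.7%) differed by over 1 log2 unit between the 24 h pair, against 1.25% to 1.92% for pairs of normoxic libraries and at most 8.78% for pairs at 6 or 12 h. The most abundant 100 genes took 27.8% to 28.3% of the counts in normoxia, 34.0% in 24 h replicate 1 and 46.4% in replicate 2. Genes with at least 10 counts numbered 18659 to 18990 in normoxia, 16595 in replicate 1 and 15743 in replicate 2. On the last 2 measures replicate 2 lay further from normoxia than replicate 1. A called log2 change that either 24 h library alone moves by over 1.5 times is therefore followed by the value with replicate 1 alone and with replicate 2 alone, in that order, unless these are written out. The libraries were built in a single batch, and the part of RNA quality or library preparation in these differences was not tested.

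Levels are in counts per 1000000 (CPM) after TMM scaling, which sets the typical gene of a library as the reference. TMM factors were 1.29 to 1.32 in normoxia, 0.851 in 24 h replicate 1 and 0.539 in replicate 2, so the scaling weighs on directions. The median log2 change over all genes was -0.0649 with TMM and -0.971 when library size alone was used. Changes are therefore relative to the typical gene, and they say nothing of RNA per cell. In bulk RNA, fewer cells of a type and less RNA per cell cannot be told apart.

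The cells carried the markers of a basal prostate epithelium at both times. Summed CPM of the basal markers ran from 8170 to 11100 in normoxia and from 16800 to 21400 at 24 h, and that of the luminal markers from 654 to 765 and from 1560 to 2800. KLK3 (prostate-specific antigen) had no count in any of the 5 libraries. Of 6 fibroblast markers COL1A1 alone made up nearly the whole sum (47.1 to 60.6 CPM in normoxia and 28.0 to 30.5 CPM at 24 h). LUM had no count, and the other 4 had 0 to 3 counts in a library, COL1A2 and COL3A1 with the higher CPM at 24 h. The leukocyte, endothelial and neuroendocrine markers each summed to at most 0.506 CPM.

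At 24 h a majority of the genes tested differed from normoxia. A gene is said to have risen, fallen or been called where its p by the quasi-likelihood test of edgeR, Benjamini-Hochberg adjusted across the 19981 genes, was under 0.05. By this test 12235 genes (61.2% of those tested) were called, 5974 higher (29.9%) and 6261 lower (31.3%). Beyond 2 log2 units, 1626 were higher (8.14%) and 1983 lower (9.92%), and beyond 4 log2 units 126 (0.631%) and 337 (1.69%). With library size alone in place of TMM, 13527 genes were called, and the share called higher fell from 48.8% to 16.4% (2222 higher and 11305 lower). With sample quality weights in limma-voom, which give a library that departs from its group less influence, 6169 were called.

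Replicate 1 alone called 5410 genes higher (27.1%) and 5984 lower (29.9%), and replicate 2 alone called 5990 higher (30.0%) and 6991 lower (35.0%). Together and each alone they called 4035 genes higher (20.2%) and 4680 lower (23.4%), and these 8715 genes (43.6%) are described below as called in each 24 h library. Calls that were lost with 1 of the 24 h libraries alone are named as such. A lone library is assumed to vary like the other groups, while the 24 h pair varied more, so these calls may be too many. The 4035 genes make up 74.6% of those called higher by replicate 1 alone and 67.4% of those by replicate 2 alone. At 14593 genes (73.0%) both 24 h libraries lay on the same side of all 3 normoxic libraries, 6727 above (33.7%) and 7866 below (39.4%).

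**Figure D1:**
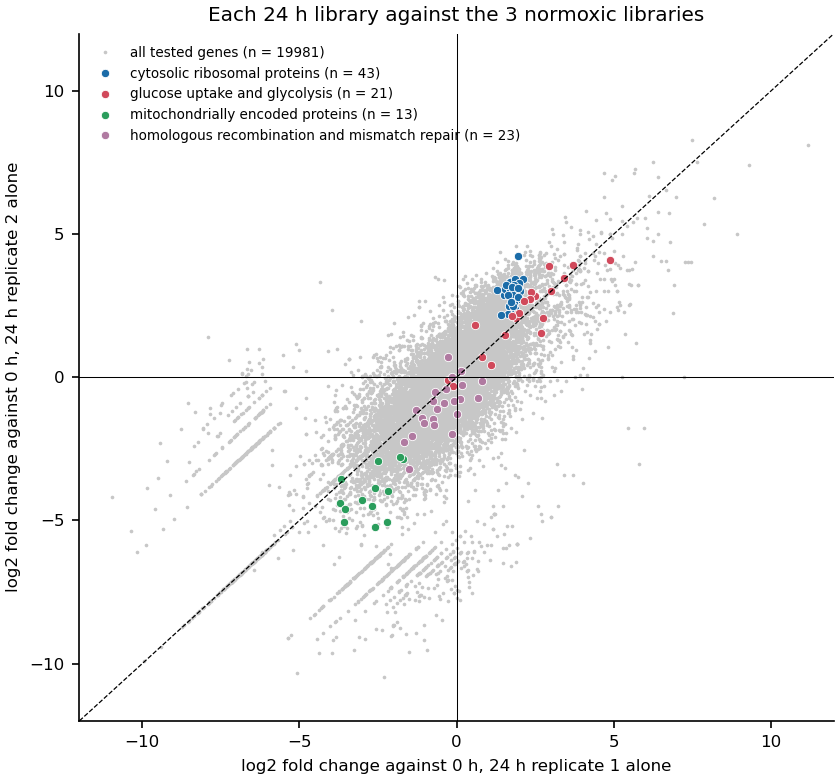
Log2 change from normoxia of each tested gene with 24 h replicate 1 alone (x axis) and replicate 2 alone (y axis), on the TMM scale. Points far from the diagonal are genes on which the 24 h libraries differ, and 5737 of 19981 genes differ by over 1 log2 unit between the pair.

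The largest rises joined known hypoxia genes with regulators of other kinds. ASB2, an adaptor of a ubiquitin ligase, had 0.185, 0.32 and 0.216 CPM in normoxia and 44 and 77.5 CPM at 24 h. Its log2 change was 7.97 ± 0.36 (adjusted p = 1.77e-07), and the groups lay far apart. EGLN3, an oxygen-sensing hydroxylase and itself a HIF target, had 1.41, 3.52 and 2.74 CPM in normoxia and 219 and 337 CPM at 24 h, a log2 change of 6.77 ± 0.44 (adjusted p = 5.72e-07). ANGPTL4, a secreted inhibitor of lipoprotein lipase, had 0.347, 0.187 and 0.529 CPM in normoxia and 18.4 and 52.3 CPM at 24 h, a change of 6.61 ± 0.49 (5.65 and 7.12 alone). Both hypoxic libraries were above every normoxic one for these 3 genes, and ANGPTL4 was higher in replicate 2 than in replicate 1. IGFBP3, which binds insulin-like growth factors, had 4.58, 6.77 and 6.4 CPM in normoxia and 417 and 492 CPM at 24 h, a change of 6.26 ± 0.38. EDN2, a vasoconstrictor peptide, had 3.21, 4.56 and 3.08 CPM in normoxia and 111 and 446 CPM at 24 h, a change of 6.27 ± 0.61 (4.93 and 6.90 alone). KLF17, a transcription factor, had no count in normoxia and 7.87 and 0.981 CPM at 24 h, at least 60.0-fold higher against a floor of 3 counts per library. These floors cover counting error only. The bound for KLF17 uses the mean of both 24 h libraries, and replicate 2 alone would give a smaller bound.

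The 24 h libraries gave different sizes for other genes among the largest rises. ADAMTS1, a secreted protease, had 2.08, 1.28 and 2.5 CPM in normoxia and 209 and 27.1 CPM at 24 h. ARC, an immediate early gene best known from neurons, had 12.1 and 0.49 CPM at 24 h. In both, replicate 1 was the higher library by a wide margin. Without normoxic replicate 3 the log2 change of ARC went from 5.98 (6.89 and 2.23 alone) to 6.61. RASD1, a small G protein, rose by 5.91 (6.65 and 4.08 alone) on the log2 scale and NKX1-2, a homeobox gene with 37.8% of its exons under an antisense gene, by 5.73 (6.26 and 4.76 alone). Without normoxic replicate 2 that of RASD1 was 6.49. The strand setting of the counting is not given in the sources used here, so reads of overlapping antisense genes cannot be told apart.

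Among noncoding genes, HIF1A-AS3, transcribed next to HIF1A, rose by 6.13 (6.79 and 4.73 alone) on the log2 scale, SUCLA2-AS1 by 5.61 (6.04 and 4.87 alone) and LINC03016 by 4.40 (4.95 and 3.35 alone). Each was called in each 24 h library. Among the largest falls, TRIM66, a chromatin reader of the tripartite motif family, had 14.9, 18.6 and 18.8 CPM in normoxia and 0.471 and 0.273 CPM at 24 h, a log2 change of -5.50 ± 0.33 (adjusted p = 4.26e-07). LCN12, a lipocalin, was at least 22.0-fold lower, COLCA1, a noncoding gene, at least 30.7-fold and XAF1, a binding partner of the apoptosis inhibitor XIAP with 38.3% antisense overlap, at least 18.7-fold. KLHDC7B had a log2 change of -4.96, BLACAT1, first described as a noncoding gene of bladder cancer, one of -4.89 and the zinc finger gene ZFP3 one of -4.76. PLA2G4B, a phospholipase with 75.6% same-strand overlap, changed by -5.14. The 10 lowest coding genes by the rule also held DYNLT2 (at least 11.9-fold lower), S100A1 (at least 13.5-fold) and CCDC154 (at least 12.4-fold), and the noncoding falls WAPL-DT (at least 12.9-fold) and MRPL23-AS1 (at least 18.1-fold). In all of these genes both 24 h libraries lay below the 3 normoxic ones.

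Promoters of the most raised genes are shown because HIF binds the letters ACGTG or GCGTG on either strand. Each is the 250 bases before the start of the gene in RefSeq (GRCh38.p14), written 5′ to 3′ on the strand of the gene, with every match to either motif, read on either strand, in capitals. The match in ASB2 reads as the motif on both strands at once. Genes were taken in order of their rise, and KLF17, EGLN3 and EDN2, which come within that order, hold neither motif in this window. Of 2 RefSeq entries of ASB2 the one that holds a motif is shown. ASB2 spans chr14:93976571-93976820 on the minus strand, ANGPTL4 chr19:8363905-8364154 on the plus strand, IGFBP3 chr7:45921273-45921522 on the minus strand and HIF1A-AS3 chr14:61751098-61751347 on the minus strand.
ASB2: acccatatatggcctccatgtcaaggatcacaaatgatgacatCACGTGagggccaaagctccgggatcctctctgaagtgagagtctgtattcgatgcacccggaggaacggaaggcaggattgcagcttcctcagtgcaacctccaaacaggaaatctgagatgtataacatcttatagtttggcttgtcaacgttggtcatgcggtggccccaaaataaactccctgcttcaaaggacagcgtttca
ANGPTL4: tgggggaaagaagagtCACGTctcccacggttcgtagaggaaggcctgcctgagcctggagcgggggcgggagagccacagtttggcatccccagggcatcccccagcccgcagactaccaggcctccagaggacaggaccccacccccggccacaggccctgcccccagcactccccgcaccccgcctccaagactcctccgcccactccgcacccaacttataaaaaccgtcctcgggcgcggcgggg
IGFBP3: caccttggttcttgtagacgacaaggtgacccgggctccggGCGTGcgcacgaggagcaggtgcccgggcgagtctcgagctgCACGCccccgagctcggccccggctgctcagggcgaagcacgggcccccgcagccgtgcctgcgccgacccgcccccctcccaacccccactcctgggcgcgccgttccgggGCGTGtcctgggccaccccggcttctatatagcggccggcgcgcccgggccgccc
HIF1A-AS3: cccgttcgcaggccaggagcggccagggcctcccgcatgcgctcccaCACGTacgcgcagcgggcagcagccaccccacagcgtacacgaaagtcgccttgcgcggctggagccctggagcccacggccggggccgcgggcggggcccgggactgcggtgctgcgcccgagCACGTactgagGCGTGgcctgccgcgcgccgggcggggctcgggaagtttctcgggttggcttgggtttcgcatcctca
The motif begins 207 bases before the start of ASB2 and 234 bases before that of ANGPTL4, and 209, 167 and 55 bases before that of IGFBP3. In HIF1A-AS3 it lies 203, 79 and 68 bases before the start. The letters are common: 15172 of 35116 such windows (43.2%) hold at least 1 of them, and among tested genes with a window 6810 of 12101 (56.3%) do. Of the genes called higher in each 24 h library 1489 of 2472 (60.2%) hold the motif, and of those called lower 1680 of 3074 (54.7%). Among the HIF targets described next it is 21 of 24, and among the glycolytic genes 12 of 20. A match is a description of letters and not a binding site.

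Glucose uptake and glycolysis rose almost as a whole. Of 21 genes, 19 were higher and 0 lower, with a median log2 change of 2.25 against -0.0649 over all genes. Alone, replicate 1 called 19 higher and 0 lower (median 2.15) and replicate 2 19 and 0 (median 2.20), and library size alone gave 16 and 2 (median 1.45). SLC2A3, the glucose transporter GLUT3 (ENSG00000059804, chromosome 12, 7919230-8019007, hg38), had 2.43, 2.24 and 2.77 CPM in normoxia and 74.8 and 43.6 CPM at 24 h. Its log2 change was 4.58 ± 0.23 (adjusted p = 1.77e-07), 4.90 with replicate 1 alone and 4.08 with replicate 2 alone. SLC2A1, the transporter GLUT1, was far more abundant in counts, with 442, 466 and 520.2 CPM in normoxia and 3891 and 4034 CPM at 24 h, a log2 change of 3.06 ± 0.22. For both transporters the hypoxic libraries were above all normoxic ones, and SLC2A3 was higher in replicate 1. The authors propose that some SLC2A3 reads may have been assigned to SLC2A14, a close copy. The part of such reads in the level of SLC2A3 was not tested. LDHA, which makes lactate from pyruvate, had 350.1, 349.5 and 384 CPM in normoxia and 4794 and 5721 CPM at 24 h, a change of 3.86 ± 0.23. Of the enzymes between, TPI1 rose by 3.53, PGK1 by 2.72, ENO1 by 2.58, PKM by 2.48 and GAPDH by 2.0 on the log2 scale. The regulator PFKFB4, which makes the activator of phosphofructokinase, rose by 3.47. HK2, the hexokinase that traps glucose, had 1070 and 502 CPM at 24 h, and its log2 change was 2.68 with replicate 1 alone and 1.55 with replicate 2 alone. The phosphofructokinase genes PFKL (-0.14) and PFKM (-0.17) were not called. The share of all counts from these genes went from 0.638% to 0.694% in normoxia to 2.28% and 1.84% at 24 h.

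HIF targets outside glycolysis moved as widely, with 26 of 29 higher and 0 lower and a median of 2.32. The counts were 26 and 0 with replicate 1 alone (median 2.29), 24 and 0 with replicate 2 alone (median 1.91) and 21 and 2 with library size alone (median 1.38). CA9, a membrane carbonic anhydrase of pH control with 35.7% antisense overlap, had 0.37, 0.96 and 0.938 CPM in normoxia and 40.6 and 36.9 CPM at 24 h, a log2 change of 5.68 ± 0.43 (adjusted p = 1.22e-06). ADM, the vasodilator adrenomedullin, rose by 4.72, the mitophagy receptor BNIP3 by 4.21 and the collagen lysyl hydroxylase PLOD2 by 4.06. NDRG1, a stress-induced gene, rose by 2.41 and was among the most abundant transcripts at 24 h, with 9454 and 10340 CPM. DDIT4, an inhibitor of mTOR signalling, rose by 1.59. VEGFA, the vessel growth factor, had 138, 151 and 154 CPM in normoxia and 381 and 159.5 CPM at 24 h. In replicate 2 it stood close to the highest normoxic value, and its log2 change of 0.87 ± 0.27 was 1.35 with replicate 1 alone and 0.059 with replicate 2 alone, not called in the latter. The chemokine receptor CXCR4 was under the floor in every normoxic library and at least 10.3-fold higher at 24 h, though not called with replicate 2 alone.

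The oxygen-sensing genes themselves moved in both directions. Of 9, 2 rose and 4 fell, with a median of -1.06, against 29.9% higher and 31.3% lower over all genes tested. Higher and lower calls numbered 3 and 4 with replicate 1 alone (median -0.99), 2 and 4 with replicate 2 alone (median -1.01), and 1 and 6 with library size alone (median -1.99). The hydroxylases diverged: EGLN3 rose as above, EGLN1 rose by 1.29 with 55.8% of its exons shared with another gene on its strand, and EGLN2, with 30.6% so shared, fell with a log2 change of -1.95 (-1.55 and -2.65 alone). VHL changed by -1.67, ARNT, the partner of the alpha subunits, by -1.25 and HIF1AN, the asparagine hydroxylase that restrains HIF, by -1.05, all called lower in each 24 h library. HIF1A had 209.7, 185 and 208 CPM in normoxia and 326 and 219 CPM at 24 h. Replicate 2 stood close to the highest normoxic value, and its log2 change of 0.44 ± 0.19 was not called (adjusted p = 0.0644). With replicate 1 alone it was called higher (0.68), and with replicate 2 alone not (0.069). EPAS1, which encodes HIF2 alpha, was not called (-0.16). HIF alpha subunits are controlled mainly at the protein, which was not measured here.

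**Figure D2:**
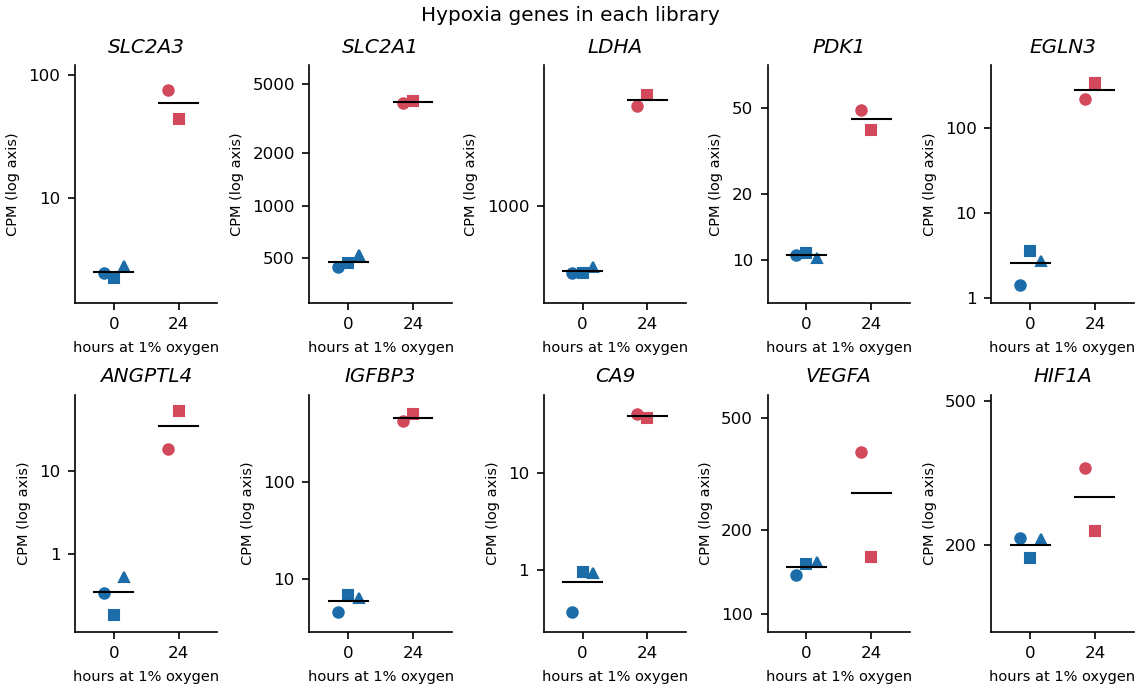
Level in CPM (log axis) of hypoxia genes in each library, by hours at 1% oxygen, with normoxia in blue, hypoxia in red, a marker shape per replicate number and a black bar at the mean. SLC2A3 stands at 74.8 and 43.6 CPM in the 24 h libraries against at most 2.77 CPM in normoxia.

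On the TMM scale the mitochondrial and nuclear genes of the respiratory chain went in opposite directions. All 13 protein-coding genes of the mitochondrial genome fell, with a median log2 change of -3.31. By replicate 1 alone 0 were higher and 13 lower (median -2.61), by replicate 2 alone 0 and 13 (median -4.28), and under library size alone 0 and 13 (median -4.05). MT-CO1, a core subunit of cytochrome oxidase, had 15940, 16630 and 16420 CPM in normoxia and 2752 and 452 CPM at 24 h, a change of -3.35 ± 0.59 (-2.58 and -5.23 alone). MT-ND1, of complex I, had 2760, 2711 and 2762 CPM in normoxia and 344 and 146 CPM at 24 h, a change of -3.49 ± 0.39 (-3.01 and -4.28 alone). Replicate 2 was the lower library in both genes. The fall ran from -2.14 (-1.72 and -2.84 alone) for MT-CYB to -4.10 (-3.57 and -5.05 alone) for MT-ND5. The share of all counts from the mitochondrial genome was 10.2% to 10.3% in normoxia, 4.3% to 6.78% at 6 and 12 h, and 1.74% and 0.369% at 24 h.

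Of 39 nuclear genes of oxidative phosphorylation, 32 rose and 2 fell, with a median of 1.28. These became 27 and 2 with replicate 1 alone (median 0.88), 35 and 3 with replicate 2 alone (median 1.57) and 14 and 6 with library size alone (median 0.27). COX6B1, of cytochrome oxidase, rose by 2.31 (1.52 and 2.76 alone), UQCRH, of complex III, by 2.28 and ATP5F1B, of the ATP synthase, by 0.70 on the TMM scale, the latter turning to -0.216 with library size alone. NDUFS1, of complex I, was among the falls (-0.75). NDUFA4L2, which replaces a subunit of the chain in hypoxia, was not called (0.59), though it was with replicate 2 alone (0.89). Among 19 genes of pyruvate entry and the citric acid cycle, 9 rose and 2 fell, with a median of 0.387. Alone, replicate 1 called 10 higher and 2 lower (median 0.41) and replicate 2 10 and 2 (median 0.56), and library size alone gave 4 and 9 (median -0.52). PDK1, the kinase that blocks pyruvate entry, had 10.5, 10.7 and 10.2 CPM in normoxia and 49.2 and 39.6 CPM at 24 h, a log2 change of 2.08 ± 0.19. MPC2, of the mitochondrial pyruvate carrier, rose by 2.02, and OGDH, of the cycle itself, changed by -1.27 and the kinase PDK3 by -0.64, both called lower.

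The cytosolic ribosomal proteins rose as a block. All 43 measured were higher, with a median of 2.55. The counts were 43 and 0 with replicate 1 alone (median 1.78), 43 and 0 with replicate 2 alone (median 3.02) and 43 and 0 with library size alone (median 1.48). The rise was larger in replicate 2 than in replicate 1. RPLP0, of the ribosomal stalk, had 1455, 1521 and 1574 CPM in normoxia and 5031 and 12640 CPM at 24 h, a log2 change of 2.54 ± 0.32 (1.72 and 3.01 alone). RPL35, of the large subunit, had 607, 595 and 652 CPM in normoxia and 2410 and 12080 CPM at 24 h, a change of 3.55 ± 0.46 (1.95 and 4.24 alone). Neither gene overlapped between the groups, and replicate 2 was the higher library in both. The smallest change in the list was 1.87, for RPS23. The share of counts from these genes went from 4.91% to 5.05% in normoxia to 11.4% and 17.5% at 24 h. With an offset for the GC content and length of genes the median was 2.63. EEF1A1, the elongation factor and the most abundant nuclear transcript at 24 h, had 10780, 11520 and 11380 CPM in normoxia and 33520 and 78720 CPM at 24 h. EEF2, the factor that moves the ribosome along, had 10450 and 11570 CPM at 24 h, and RPS2, RPL4 and RPL13A were among the 5 nuclear transcripts with the most CPM in replicate 2.

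Transcript class moved along with these groups, while over all genes tested 29.9% rose and 31.3% fell. In the 4971 genes of shortest exonic length (49 to 1870 bases) 2075 rose and 989 fell, and in the 4971 longest (6940 to 205000 bases) 888 rose and 2175 fell. The median log2 difference of replicate 1 from replicate 2 was -0.421 in the shortest and 0.333 in the longest. Processed pseudogenes, many of them intronless copies of ribosomal protein and other abundant genes, rose in 1196 of 2158 cases and fell in 189. Reads shared between such copies and their parents could have been counted in either. The part of length, of copies and of library composition in the ribosomal and respiratory results was not tested beyond the offset.

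**Figure D3:**
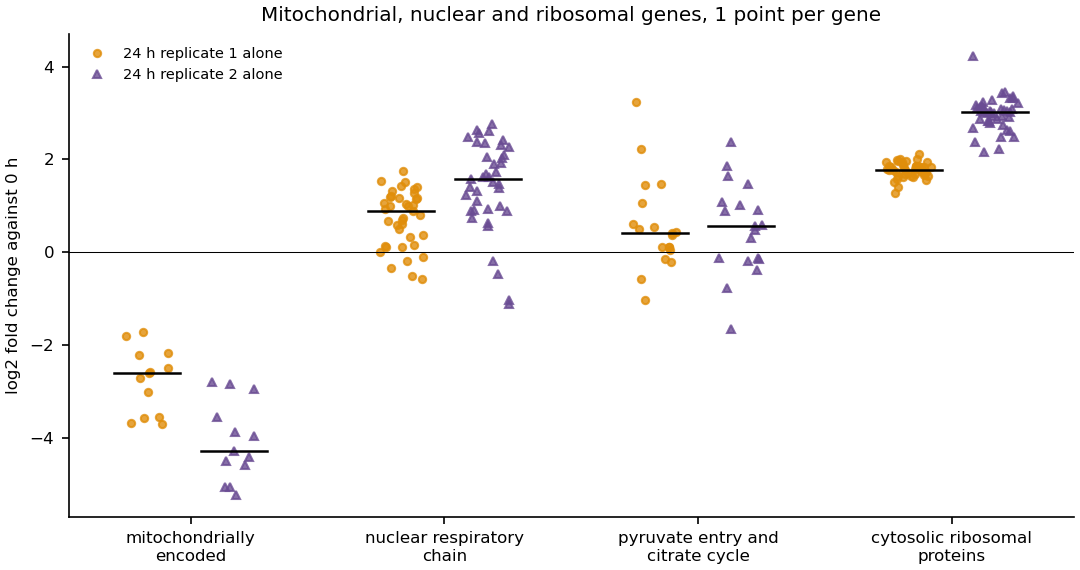
Log2 change from normoxia of mitochondrially encoded, nuclear respiratory chain, pyruvate entry and citrate cycle, and cytosolic ribosomal protein genes. Each point is a gene, with 24 h replicate 1 alone (orange circles) or replicate 2 alone (purple triangles), and a black bar marks the median. The medians with replicate 1 and replicate 2 alone are -2.61 and -4.28 for the mitochondrially encoded genes. For the ribosomal proteins they are 1.78 and 3.02.

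Sterol synthesis did not move as one. Of 23 genes 13 rose and 4 fell, with a median of 1.07. Higher and lower calls numbered 13 and 4 with replicate 1 alone (median 0.69), 13 and 6 with replicate 2 alone (median 1.19), and 7 and 8 with library size alone (median 0.086). DHCR7, of the last step to cholesterol, rose by 2.41, EBP, a sterol isomerase with 36.4% same-strand overlap, by 2.86 (2.10 and 3.29 alone) and SQLE, a rate-limiting oxygen-consuming step, by 1.34. The synthase HMGCS1 (-0.55, 37.7% antisense overlap), the cyclase LSS (-1.38) and the regulator SREBF2 (-1.18) were lower.

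Of 20 genes of the ATF4 response to amino acid and protein stress 6 rose and 10 fell, with a median of -0.432. Over all genes tested 29.9% were higher and 31.3% lower. By replicate 1 alone 5 were higher and 10 lower (median -0.24), by replicate 2 alone 6 and 10 (median -0.46), and under library size alone 0 and 15 (median -1.29). Of 20 chaperones and unfolded protein response genes of the endoplasmic reticulum 2 rose and 7 fell, with a median of -0.453, a share of falls near that of all genes tested (31.3%). These became 2 and 7 with replicate 1 alone (median -0.39), 2 and 9 with replicate 2 alone (median -0.41) and 0 and 16 with library size alone (median -1.34). SLC7A11, the cystine transporter, had 33.1, 31.0 and 32.4 CPM in normoxia and 4.41 and 1.74 CPM at 24 h, a log2 change of -3.36 ± 0.32 (-2.88 and -4.25 alone). CHAC1, a glutathione-degrading enzyme, changed by -3.24 (-2.69 and -4.42 alone), and ASNS, asparagine synthetase with 49.3% same-strand overlap, by -1.65. DDIT3, the stress factor CHOP with 31.6% antisense overlap, changed by -2.73. ATF4 itself rose by 0.79, and the serine and proline enzymes SHMT2 by 0.97 and ALDH18A1 by 0.82, with ATF4 at -0.075 and ALDH18A1 at -0.0851 with library size alone. In the endoplasmic reticulum the sensor ERN1 changed by -2.76, EDEM1, of misfolded protein disposal, by -1.88 (-1.38 and -2.75 alone) and HERPUD1 by -1.63 (-1.23 and -2.28 alone). The chaperone HSPA5 was called lower (-1.48), but not with replicate 1 alone (-1.12). PDIA3, a disulfide isomerase, rose by 0.93 and the chaperone HSP90B1 by 0.90, which turned to -0.0137 with library size alone.

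Genes of DNA replication were split. Of 30, 8 rose and 8 fell, with a median of 0.0611, shares near those of all genes tested (29.9% higher and 31.3% lower). Alone, replicate 1 called 9 higher and 6 lower (median -0.08) and replicate 2 7 and 9 (median -0.037), and library size alone gave 0 and 18 (median -0.84). GINS2, of the replicative helicase, rose by 1.30, the clamp PCNA by 1.15 and ORC1, of the origin complex, by 1.16, the latter not called with replicate 2 alone (0.53). E2F2, a cell cycle factor, fell, with a log2 change of -2.26. The helicase subunit MCM2 (0.0084) and the reductase subunit RRM2 (-0.25) were not called. Of 25 mitotic genes 0 rose and 6 fell, with a median of -0.30, a share of falls below that of all genes tested (31.3%). The counts were 0 and 1 with replicate 1 alone (median -0.43), 0 and 5 with replicate 2 alone (median -0.51) and 0 and 17 with library size alone (median -1.28). Called lower in each 24 h library was 1 gene, and with sample quality weights 0 were called. FOXM1, the factor that drives mitotic genes, changed by -1.61 (-1.19 and -2.31 alone), MKI67 by -1.57 and TOP2A by -1.18, and with replicate 1 alone MKI67 (-1.27) and TOP2A (-0.79) were not called. CCNB1 (0.34) and PLK1 (-0.30) were not called.

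Genes of homologous recombination and mismatch repair were lower or not called. Of 23, 12 fell and 0 rose, with a median of -0.599. Higher and lower calls numbered 1 and 8 with replicate 1 alone (median -0.42), 1 and 14 with replicate 2 alone (median -0.89), and 0 and 21 with library size alone (median -1.50). BRCA1, of homologous recombination, had 39.3, 32.1 and 35.4 CPM in normoxia and 12.5 and 3.98 CPM at 24 h, a log2 change of -2.10 ± 0.34 (-1.52 and -3.21 alone) (adjusted p = 0.000197). RAD52, which anneals DNA strands, changed by -1.90. BRCA2 was not called (adjusted p = 0.0886), with -0.16 with replicate 1 alone and -1.98 with replicate 2 alone. With the offset for length and GC content 3 of the 23 were called higher and 8 lower, and with sample quality weights 0 higher and 5 lower.

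Inhibitors of the cell cycle did not share a direction. Of 17 such genes and D cyclins 6 rose and 4 fell, with a median of 0.249. Over all genes tested 29.9% were higher and 31.3% lower. By replicate 1 alone 6 were higher and 5 lower (median -0.083), by replicate 2 alone 8 and 5 (median 0.17), and under library size alone 2 and 10 (median -0.67). GADD45B, a stress gene that slows the cycle, rose by 3.19, the kinase inhibitor CDKN1C by 1.89 (0.96 and 2.41 alone) and CCNG2 by 1.06. TP53INP1, a p53 target, had 25.4, 33.4 and 24.8 CPM in normoxia and 0.813 and 3.38 CPM at 24 h, a log2 change of -3.77 ± 0.44 (-5.11 and -3.10 alone), and CDKN2B changed by -1.64. CDKN1A, the inhibitor p21 (-0.076), and CCND1 (0.25) were not called.

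Most genes of the MYC network and ribosome biogenesis were called. Of 28 genes 20 rose and 5 fell, with a median of 1.04. These became 20 and 5 with replicate 1 alone (median 1.02), 19 and 6 with replicate 2 alone (median 1.15) and 11 and 7 with library size alone (median 0.14). NOP16 rose by 2.75, the rRNA processing factor RRP9 by 2.35 (1.58 and 2.79 alone), nucleolin (NCL) by 1.74 and NOP56 by 1.17. MXI1, an antagonist of MYC and a known HIF target, rose by 1.66, while the antagonists MXD3 (-1.53, -2.44 and -1.02 alone) and MNT (-1.04) fell. MYC had 101, 83.7 and 99.8 CPM in normoxia and 172 and 131 CPM at 24 h, and its log2 change of 0.68, called with both libraries, was 0.42 with replicate 2 alone (not called) and -0.194 with library size alone.

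Histone and heat shock transcripts had no falls on the TMM scale. Of 16 replication-dependent histone genes tested (27 listed) 10 rose and 0 fell, with a median of 1.39. Alone, replicate 1 called 6 higher and 0 lower (median 0.95) and replicate 2 10 and 0 (median 1.76), and library size alone gave 4 and 1 (median 0.40). H1-2, a linker histone, had 11.4, 12.1 and 11.4 CPM in normoxia and 82.7 and 173 CPM at 24 h, a log2 change of 3.46 ± 0.26 (2.82 and 3.85 alone). H2BC11 rose by 3.23 (2.64 and 3.59 alone), and H2BC21 was not called (0.20). Many histone genes are near copies of one another, so reads can be split between them, and most of their transcripts lack a poly(A) tail. Of 22 heat shock genes 19 rose and 0 fell, with a median of 2.22. The counts were 20 and 0 with replicate 1 alone (median 2.02), 18 and 1 with replicate 2 alone (median 2.13) and 16 and 2 with library size alone (median 1.29). HSP90AA1, the stress-induced HSP90, had 331, 337 and 329 CPM in normoxia and 3904 and 4953 CPM at 24 h, a change of 3.74 ± 0.24. The constitutive HSPA8 rose by 3.12. HSPA1A rose by 2.72, though it is nearly identical to HSPA1B and the 2 cannot be told apart with confidence.

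Inflammatory genes showed no common direction. Of 18, 8 rose and 4 fell, with a median of 0.111, against 29.9% higher and 31.3% lower over all genes tested. Higher and lower calls numbered 8 and 4 with replicate 1 alone (median 0.46), 5 and 6 with replicate 2 alone (median 0.24), and 6 and 5 with library size alone (median -0.73). PTGS2, which makes prostaglandins, had 2.59, 3.73 and 3.01 CPM in normoxia and 83.9 and 12.6 CPM at 24 h, a log2 change of 3.96 ± 0.60 (4.74 and 1.97 alone). The neutrophil chemokine CXCL8 had 0.347, 0.693 and 0.433 CPM in normoxia and 10.8 and 1.64 CPM at 24 h, a change of 3.68 ± 0.72 (4.45 and 1.69 alone). In both, replicate 1 was several-fold above replicate 2, and with replicate 2 alone CXCL8 was not called. NFKBIA, the inhibitor of NF-kappa-B, rose by 3.29. LIF, a cytokine of the interleukin 6 family, changed by -3.16 and NFKBIZ by -2.84 (-2.28 and -4.0 alone), and IL1B was not called (-0.035), though lower with replicate 2 alone (-0.73). CSF2, a granulocyte and macrophage growth factor, was under the floor in normoxia and at least 7.3-fold higher at 24 h.

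Interferon genes moved both ways. Of 28, 8 rose and 11 fell, with a median of 0.247, against 29.9% higher and 31.3% lower over all genes tested. By replicate 1 alone 6 were higher and 8 lower (median 0.074), by replicate 2 alone 10 and 11 (median 0.092), and under library size alone 3 and 13 (median -0.68). STAT2, which carries the type I signal, had 61.8, 73.7 and 56.9 CPM in normoxia and 11.2 and 8.01 CPM at 24 h, a log2 change of -2.73 ± 0.28, and its partner IRF9 changed by -2.04. The antiviral tether BST2 rose by 2.0 (1.33 and 2.41 alone) and ISG15 by 1.32, the latter not called with replicate 1 alone (0.32). IFIT1 (0.46) and MX1 (0.16) were not called.

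Basal and luminal keratins and lineage factors also moved both ways. Of 22 such genes 10 rose and 5 fell, with a median of 0.575, against 29.9% higher and 31.3% lower over all genes tested. These became 9 and 2 with replicate 1 alone (median 0.14), 11 and 6 with replicate 2 alone (median 0.59) and 4 and 10 with library size alone (median -0.44). KRT17, a keratin of stressed and basal cells, had 3940, 4159 and 4691 CPM in normoxia and 13800 and 35680 CPM at 24 h, a log2 change of 2.54 ± 0.34 (1.68 and 3.01 alone). KRT8, a keratin of luminal cells, rose by 2.59, KRT14 by 2.13 and KRT5 by 0.73, the last turning to -0.208 with library size alone. TP63, the master factor of basal epithelium, changed by -1.50 and the desmosomal cadherin DSG3 by -1.62 (-1.09 and -2.59 alone). Of 18 squamous differentiation genes 5 rose and 6 fell, with a median of -0.135. These shares were near those of all genes tested (29.9% higher and 31.3% lower). Alone, replicate 1 called 6 higher and 6 lower (median 0.028) and replicate 2 2 and 5 (median -0.48), and library size alone gave 1 and 9 (median -1.07). The envelope protein IVL changed by -2.43 and FLG by -2.70. KLF4, a differentiation factor, was called higher (0.89) with both libraries, and so were SPRR1B (0.67) and GRHL3 (0.79). None of them was called with replicate 2 alone (0.068, 0.41 and -0.038), and SPRR1B turned to -0.199 with library size alone.

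Of 30 genes of the matrix and of adhesion 16 rose and 4 fell, with a median of 0.688. The counts were 16 and 3 with replicate 1 alone (median 0.66), 15 and 8 with replicate 2 alone (median 0.30) and 4 and 11 with library size alone (median -0.21). ITGA5, a fibronectin receptor subunit, rose by 2.46 (2.95 and 1.63 alone), the protease inhibitor TIMP1 by 2.33, LAMB3 of laminin-332 by 1.15 and THBS1 by 1.19. LAMA5, of laminin-511, changed by -1.72 and TIMP3 by -1.01. FN1, fibronectin, was called with a change of 1.05 that came from replicate 1 (1.52, against 0.23 with replicate 2 alone, not called).

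Of 21 genes of cell junctions and the epithelial to mesenchymal switch 8 rose and 8 fell, with a median of 0.357. Over all genes tested 29.9% were higher and 31.3% lower. Higher and lower calls numbered 7 and 6 with replicate 1 alone (median 0.48), 7 and 9 with replicate 2 alone (median 0.16), and 4 and 9 with library size alone (median -0.52). VIM, the intermediate filament of mesenchymal cells, had 12.3, 12.7 and 13.0 CPM in normoxia and 137 and 165 CPM at 24 h, a log2 change of 3.57 ± 0.32 (adjusted p = 2.98e-06). CDH1, E-cadherin, had 307, 353 and 312 CPM in normoxia and 174 and 138 CPM at 24 h, a change of -1.06 ± 0.17. The groups did not overlap in either gene. SNAI2, a repressor of CDH1, rose by 1.98 and TWIST2 by 2.58 (1.99 and 2.94 alone), the tight junction gene CLDN1 changed by -1.29, and ZEB1 was not called (0.71). The part of other cell types in these values was not tested.

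Of 22 immediate early genes 9 rose and 3 fell, with a median of 0.533, against 29.9% higher and 31.3% lower over all genes tested. By replicate 1 alone 10 were higher and 3 lower (median 0.72), by replicate 2 alone 7 and 5 (median 0.39), and under library size alone 5 and 6 (median -0.40). DUSP1, a phosphatase of MAP kinases, had 15.9, 15.2 and 16.7 CPM in normoxia and 475 and 769 CPM at 24 h, a log2 change of 5.28 ± 0.27. FOS rose by 2.59 (3.21 and 1.34 alone), JUN by 1.68 and IER3, with 38.9% antisense overlap, by 3.24, whereas EGR1 changed by -2.23. IER2, with 52.2% antisense overlap, was called lower (-0.79) but not with replicate 1 alone (-0.62).

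Of 21 NRF2 targets, which handle oxidants, 15 rose and 2 fell, with a median of 1.07. These became 14 and 2 with replicate 1 alone (median 0.69), 15 and 1 with replicate 2 alone (median 1.27) and 8 and 5 with library size alone (median 0.088). NQO1, a quinone reductase, rose by 2.38 and HMOX1, which degrades heme, by 1.07. The aldo-keto reductases AKR1C1 (2.40) and AKR1C2 (2.57) are near-identical copies and their split is uncertain. NFE2L2, the gene of NRF2, was not called (0.036). SLC7A11, itself also an NRF2 target, fell as described. Of 14 metallothionein and zinc genes 8 rose and 4 fell, with a median of 1.19. Alone, replicate 1 called 7 higher and 4 lower (median 0.62) and replicate 2 9 and 4 (median 1.12), and library size alone gave 4 and 4 (median 0.23). MT2A, which binds zinc, rose by 2.75, with 1.67 with replicate 1 alone and 3.31 with replicate 2 alone, while MTF1, the factor that induces it (-0.89), and the exporters SLC30A1 (-0.58) and SLC30A4 (-1.09) fell.

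Of 24 genes of IGF, TGF-beta and EGF signalling 10 rose and 6 fell (over all genes 29.9% and 31.3%), with a median of 0.189. The counts were 10 and 6 with replicate 1 alone (median 0.17), 7 and 8 with replicate 2 alone (median 0.018) and 5 and 11 with library size alone (median -0.71). The ligand EREG rose by 3.65 (4.35 and 2.09 alone), and the ligand AREG was not called (-0.56). Among receptors, ERBB2 changed by -1.36 and EGFR by -0.69, which was not called with replicate 1 alone (-0.38). IGFBP5 fell (-2.44, -1.84 and -3.96 alone) while IGFBP3 rose. INHA, an inhibin subunit, was under the floor at 24 h and at least 9.11-fold lower, and INHBA, an activin subunit, was not called (0.022).

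Long noncoding RNAs fell more often than they rose, 1233 lower and 299 higher of 2631 tested. Over all genes tested 31.3% were lower and 29.9% higher. Of 10 listed 2 rose and 6 fell, with a median of -1.19. Higher and lower calls numbered 2 and 5 with replicate 1 alone (median -0.74), 2 and 6 with replicate 2 alone (median -1.61), and 0 and 7 with library size alone (median -2.0). NEAT1, the scaffold of paraspeckles, had 496, 491 and 434 CPM in normoxia and 35.0 and 24.1 CPM at 24 h, a log2 change of -4.0 ± 0.36 (adjusted p = 3.46e-06). NORAD, a sponge of Pumilio proteins, changed by -2.39 (-3.37 and -1.87 alone) and MALAT1, with 83.7% antisense overlap, by -1.48 (-0.85 and -2.74 alone). GAS5 rose by 1.47 and SNHG12 by 1.12, both spliced hosts of small nucleolar RNAs. RN7SL1 was not called (-0.036).

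**Figure D4:**
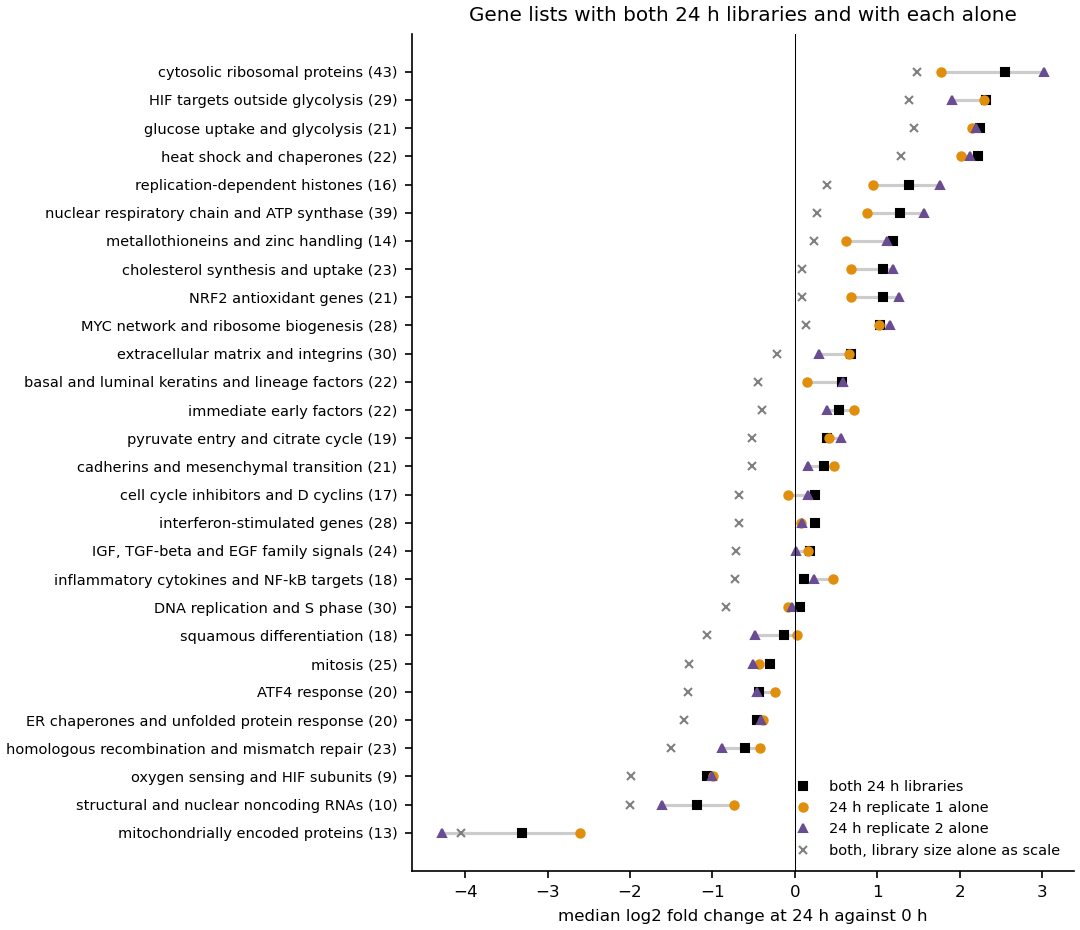
Median log2 change from normoxia of each gene list with both 24 h libraries (black square), replicate 1 alone (orange circle), replicate 2 alone (purple triangle) and both with library size alone (grey cross). The mitochondrially encoded genes (-3.31) and the ribosomal proteins (2.55) mark the ends, and the lists with medians from 0.0611 to 0.688 turn negative with library size alone.

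Setting 24 h against the mean of 6 and 12 h, in the same fit, shows where 24 h stood apart from the earlier hypoxic times. Normoxia takes no part in this contrast, so a late difference can also be a return after an early change. CCND1 averaged 64.9 CPM in normoxia, 190.4 at 6 h, 156.1 at 12 h and 77.1 at 24 h (late log2 difference -1.161). TRIB3 averaged 388.5, 117.5, 116.3 and 280.9 CPM at these times (1.265). By the same edgeR test 8150 genes were called (40.8%), 4389 higher at 24 h (22.0%) and 3761 lower (18.8%). The count rested on the 24 h library used, with 5849 without replicate 2 and 10289 without replicate 1, and with library size alone 1305 were higher and 6934 lower. In each 24 h library alone and together 1859 were higher (9.3%) and 2081 lower (10.4%). Both 24 h libraries lay above all 6 earlier hypoxic libraries in 3754 genes (18.8%) and below them in 3955 (19.8%). All 43 ribosomal proteins were higher at 24 h than earlier (median 1.76), as were 32 of 39 nuclear respiratory genes (1 lower, median 0.916), and all 13 mitochondrially encoded genes were lower (median -2.19), against a median of -0.00609 over all genes. With library size alone all 43 ribosomal proteins were still higher (median 1.09) and all 13 mitochondrially encoded genes lower (median -2.61), while 15 nuclear respiratory genes were higher and 2 lower (median 0.331), against a median of -0.525 over all genes. In many other groups the late median turned negative with that scaling, DNA replication (0.329 to -0.188) and NRF2 targets (0.492 to -0.0453) among them. It also did so in the 4 groups given next. Of the glycolytic genes 11 of 21 were higher and 0 lower (median 0.424), and with library size alone 1 was higher and 2 lower (median -0.107). Of the HIF targets 13 of 29 were higher and 0 lower (median 0.447), against 5 and 3 with library size alone (median -0.0891). The ATF4 genes (8 higher and 3 lower, median 0.0821) and the interferon genes (12 higher and 2 lower, median 0.485) had medians of -0.395 and -0.0919 with library size alone.

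GADD45G, a stress gene of the GADD45 family, averaged 0.88 CPM at 6 h and 4.66 CPM at 12 h, against 18.9 and 16.2 CPM at 24 h, a late log2 difference of 3.11 ± 0.18 (adjusted p = 6.76e-06, edgeR). EDN2 averaged 19.6 CPM at 6 h and 71.1 CPM at 12 h, a late difference of 2.90 ± 0.43 (1.58 and 3.56 alone). CLEC2B, a lectin that engages a natural killer cell receptor, averaged 0.678 CPM at 6 h and 1.25 CPM at 12 h, against 5.91 and 6.32 CPM at 24 h, a late difference of 2.71 ± 0.29. The 24 h libraries agreed closely on GADD45G and CLEC2B, and EDN2 was higher in replicate 2. RPL35 (2.58, 0.99 and 3.29 alone) and the histone gene H2AC20 (2.56, 1.2 and 3.23 alone) completed the 5 largest late rises by the rule. H2AC20 had 7.92 and 32.8 CPM at 24 h, so replicate 2 carried most of it.

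Among the late falls DUOXA2, which matures a hydrogen peroxide producing oxidase, averaged 2.45 CPM at 6 h and 1.21 CPM at 12 h, against 0.299 and 0.0545 CPM at 24 h, a late difference of -3.16 ± 0.42 (-2.51 and -4.92 alone). MT-ND3 averaged 682 CPM at 6 h and 416 CPM at 12 h, against 62.9 and 70.0 CPM at 24 h, a late difference of -3.0 ± 0.20. MT-CO3 had a late difference of -2.92 (-2.50 and -3.53 alone) and MT-ND6, coded on the other strand of the mitochondrial genome, one of -2.85. In normoxia MT-ND3 had 790.4, 784 and 809.7 CPM and MT-ND6 927, 942 and 871 CPM, so the means at 6 and 12 h lay between normoxia and 24 h. ZBED6 (-2.89, -2.40 and -3.83 alone) shares 95.7% of its exons with another gene on its strand, so its value is uncertain.

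**Figure D5:**
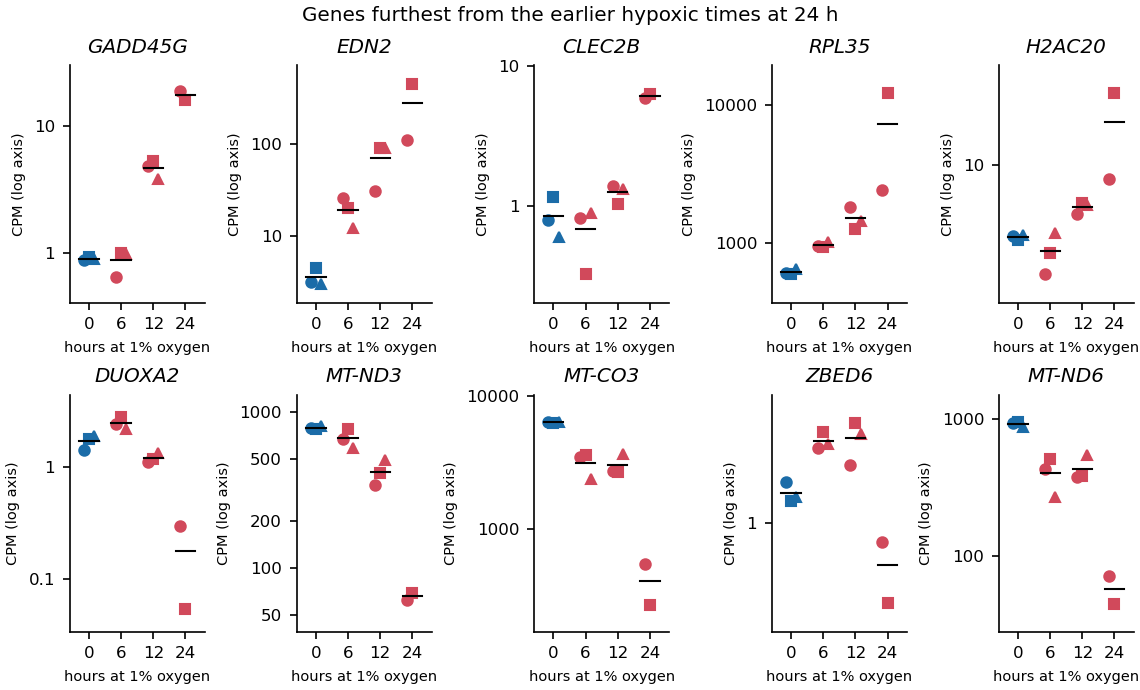
Level in CPM (log axis) of the genes with the largest differences of 24 h from the mean of 6 and 12 h, in each library by hours at 1% oxygen, with a black bar at the mean. GADD45G stands at 18.9 and 16.2 CPM in the 24 h libraries, and MT-ND3 at 62.9 and 70.0 CPM.

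The 24 h libraries placed some genes on opposite sides of normoxia. In 1367 genes (6.84%) replicate 1 was above and replicate 2 below all normoxic libraries, and in 1137 genes (5.69%) the reverse held. Of these, 200 and 82 were called in opposite directions by the libraries alone. Among genes higher in replicate 1, CRYBG3 had 17.5, 18.3 and 18.6 CPM in normoxia and 27.2 and 3.32 CPM at 24 h, a difference of 3.01 log2 units between the 24 h pair. ARHGAP5, a GTPase-activating protein with 36% antisense overlap, had 101 and 12.9 CPM, the ubiquitin ligase RNF169 51.5 and 6.65 CPM and the actin nucleator SPIRE1 131 and 17.7 CPM. For these genes the mean of the pair describes neither library. Among genes higher in replicate 2, MRPL12, of the mitochondrial ribosome with 69.5% same-strand overlap, had 5.78 and 50.9 CPM, CCDC85B 8.94 and 60.3 CPM and PLEKHJ1 11.3 and 69.7 CPM. The histone genes H4C14 and H4C15, near-identical copies, also stood higher in replicate 2, H4C14 with 19.2 and 150.1 CPM. With both libraries MRPL12 (2.38) and CCDC85B (1.40) were called higher, and with replicate 1 alone neither was (0.081 and -0.56).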

How the data were processed

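RNA over 200 nucleotides was sequenced from stranded total RNA libraries. The authors trimmed the reads with Trimmomatic 0.39, aligned them to hg38 with STAR and counted them per gene (Ensembl release 99) with featureCounts, and they deposited raw counts, neither filtered nor normalized. The strand setting and the handling of reads with several matches are not given in the sources used here. Every column was matched to a sample. The file held 60676 genes, 39835 with a count.

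filterByExpr (minimum count 10, minimum total 15) kept 19981 genes. All 11 libraries were scaled with TMM and fitted together in edgeR 4.0.16 (quasi-likelihood, a mean per time), with Benjamini-Hochberg adjustment over all genes tested. The spread of each gene is thus shared over the 4 times, and the biological coefficient of variation was 19.6%. Each 24 h library was also fitted without the other, and 24 h was set against the mean of 6 and 12 h. With 1 library at a time, the lone library is assumed to vary like the other groups. The 24 h pair varied more (28.7% of genes by over 1 log2 unit, against at most 8.78% in other pairs). Calls with a lone 24 h library therefore rest on a spread that may be too small. SE is the absolute log2 change over the square root of F. CPM are per 1000000 scaled counts. With 2 libraries against 3, exact permutation (two-sided) gives no p under 0.2, so it was not used. A group with at most 3 counts in every library has its fold given as a bound. The floor of 3 counts was 0.0693 to 0.08 CPM in normoxia and 0.128 and 0.163 CPM at 24 h, and it covers counting error only.

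Symbols, positions, lengths and GC content came from GENCODE release 44 (GRCh38), which held 19884 of the tested genes, and 17696 have a symbol. Promoter windows came from RefSeq. The genes, the 28 lists (625 of 657 entries tested) and the rules were chosen with earlier results of these data known. Named genes are, of each list, the 2 highest and 2 lowest called members (mean of at least 1 CPM) with its best known members, the 10 highest and 10 lowest coding genes by log2 change of those called in each 24 h library with no overlap, the 3 highest and 3 lowest long noncoding genes, the 5 largest late differences each way, the 5 genes furthest apart each way between the 24 h libraries (mean of at least 10 CPM), and the 5 most abundant nuclear coding genes in each. Some genes that these rules select are not reported here.

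Alternatives were limma-voom (limma 3.58.1) with and without sample quality weights, DESeq2 1.42.0, median-of-ratios scaling, library size alone, no filter, at least 10 counts in every library, only the groups compared, a replicate block, an offset for GC content and length, and each library left out. In simulated counts of the comparison of 24 h with 0 h (19981 genes), edgeR called 40 of 100 genes changed by 1 log2 unit, 94 of 100 changed by 2, and 6 of 19781 unchanged genes. All simulated libraries of a gene shared a common spread, and few genes were changed. In the data the 24 h pair differed more than other pairs and 61.2% of genes were called, so these rates need not carry over. R was 4.3.3, Python 3.11.15, numpy 2.4.6, pandas 2.3.3 and matplotlib 3.10.9.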

Additional observations from a re-analysis of the deposited data

Results flagged for a closer look

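Results are given here where 24 h differed from the earlier hypoxic times, by edgeR's quasi-likelihood test of that difference with Benjamini-Hochberg adjustment. In all 8150 genes were called in this comparison. On the log2 scale the largest rises of 24 h over the mean of 6 and 12 h by the naming rule were 3.11 for GADD45G, 2.9 for EDN2, 2.71 for CLEC2B, 2.58 for RPL35 and 2.56 for H2AC20. The largest falls were -3.16 for DUOXA2, -3 for MT-ND3, -2.92 for MT-CO3, -2.89 for ZBED6 and -2.85 for MT-ND6. No group had 4 samples or more, so a library that stands apart within its group could not be tested for.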

How the results depend on the processing

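The count of genes called at 24 h against 0 h stayed within 1.5 times under limma-voom (12044), DESeq2 (12269), median-of-ratios scaling (12225), library size alone (13527), no filter (13132), at least 10 counts in every library (9392), only the groups compared (10797) and the offset for length and GC content (12259). With sample quality weights it was 6169, 3719 higher and 2450 lower. Leaving out 1 library gave 10837 to 12981. The late count was 1797 with quality weights (1096 higher and 701 lower) and 5849 to 10289 with 1 library left out, lowest without 24 h replicate 2. The count called in each 24 h library was 10933 with library size alone (1509 higher and 9424 lower), and 7823 to 7932 with 1 normoxic library left out. After centring within each time, correlations of same-numbered libraries ran from -0.156 to 0.207 and of others from -0.271 to 0.283. In groups of 2 or 3 libraries the centring ties these values together. They therefore cannot show whether the replicate numbers pair the samples. A replicate block gave 11534 calls at 24 h and 7170 late calls.

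With library size alone these log2 changes turned: HIF1A -0.412, NDUFA4L2 -0.407, ATP5F1B -0.216, ALDH18A1 -0.0851, ATF4 -0.075, HSP90B1 -0.0137, MCM2 -0.821, CCNB1 -0.604, CCND1 -0.654, MYC -0.194, H2BC21 -0.804, IFIT1 -0.44, MX1 -0.671, KRT5 -0.208, SPRR1B -0.199, ZEB1 -0.184, NFE2L2 -0.837, IRS2 -0.142, INHBA -0.96, RNF169 -0.315, H4C14 -0.153, H4C15 -0.148 and PLEKHJ1 -0.183. That scaling moved the median of all genes from -0.0649 to -0.971. With the offset, EPAS1 turned to 0.255, RRM2 to 0.179, CRYBG3 to 0.0966 and ARHGAP5 to 0.305. With limma-voom MCM2 was -0.0322, INHBA -0.0242 and RNF169 -0.213, and with quality weights -0.0749, -0.00537 and -0.158. Without the filter MCM2 was -0.0996, NFE2L2 -0.0747 and INHBA -0.0936, and at 10 counts in every library -0.129, -0.106 and -0.128. With the replicate block CDKN1A was 0.0302, NFE2L2 -0.00808 and RN7SL1 0.193. The cause of these turns was not tested.

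With 1 library left out the sign turned within these ranges: MCM2 -0.502 to 0.338, CDKN1A -0.461 to 0.165, H2BC21 -0.288 to 0.509, IL1B -0.728 to 0.386, MX1 -0.342 to 0.491, GRHL3 -0.0381 to 1.27, NFE2L2 -0.219 to 0.197, INHBA -0.426 to 0.328, RN7SL1 -0.368 to 0.182, CRYBG3 -2.5 to 0.573, ARHGAP5 -2.41 to 0.602, RNF169 -1.81 to 1.18, SPIRE1 -2.75 to 0.17, H4C14 -1.12 to 1.81, H4C15 -1.12 to 1.81, CCDC85B -0.56 to 2.16 and PLEKHJ1 -0.873 to 1.71. Without a normoxic library some calls near the threshold were lost: CCNE2, TOP2A, KRT5, GRHL3, SPRR1B and CCDC85B without replicate 1, TRIB3, MYC, KRT5, GRHL3, SPRR1B and CCDC85B without replicate 2, and TRIB3, CCNE2, MYC, GRHL3 and CCDC85B without replicate 3. Of 205 named-gene results, 33 lost their call with quality weights, 20 with library size alone, 10 with the offset, 10 with only the groups compared and 4 with the replicate block. Depth limits genes under about 0.163 CPM in 24 h replicate 2.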
